A study of Mus musculus with 6 samples.

Results

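The genes described here encode the translation initiation factors (eIF1 to eIF6) and the elongation factors (eEF1 and eEF2) of the cytosol, with a few proteins that bind or modify them. Members were the protein-coding rows of the deposited count table whose symbol begins with Eif1 to Eif6 or with Eef1 or Eef2, with at least 10 counts over the 6 libraries. The eIF2 kinases Eif2ak1 to Eif2ak4 and the eIF4E-binding protein gene Eif4ebp1 were left out. This gave 61 of the 55487 genes in the table. The count rule used the sum over all libraries and not the difference between groups. The members nearest to it were Eif4ebp3 with 81 counts inside, and Eif2s3y and Eif4e1b, both with 0 counts, outside.

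Whole dorsal mouse skin was sampled on day 2 in 2 groups of 3 libraries, control and DPCP. DPCP is diphenylcyclopropenone, a chemical that sensitizes skin and elicits contact hypersensitivity. The labels give no strain, age or sex, do not say what control skin received, nor whether each library is a different mouse. All p-values thus reflect only variation among these libraries, possibly technical. Library totals were 28346992 to 38846787 counts, of which the members took 1.81% to 1.84% in control and 1.92% to 2.08% in DPCP libraries.

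Initiation brings a small ribosomal subunit, a methionine tRNA and an mRNA together. The tRNA arrives on eIF2 bound to GTP, eIF3 holds the assembly on the ribosomal subunit, and the cap-binding complex of eIF4E, eIF4G and the helicase eIF4A recruits the mRNA. eIF1 and eIF1A help select the start codon, and eIF5 and eIF5B release eIF2 and join the large subunit. Elongation then runs on eEF1A, which delivers each aminoacyl-tRNA, and eEF2, which moves the ribosome by a codon. Phosphorylation of eIF2 and sequestration of eIF4E are known brakes on this machinery, and Myc is a known activator of several of its genes. In skin these factors are needed wherever cells make much protein, as keratinocytes do when they multiply and differentiate.

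Because eIF4E, eIF4G and eIF4A form one complex, sequences upstream of listed starts of their genes are shown side by side. Each is the 250 bases before a start listed in RefSeq (build GRCm38.p6), written 5′ to 3′ toward that start. Of the 2 listed starts of Eif4e the one whose window holds the motif is given. The printed windows of Eif4e and Eif4g1 lie inside the gene bounds used for counting, which begin at 138526179 and 20668313. Capitals mark CACGTG, the E-box motif that Myc and related factors are known to bind. The motif reads the same on both strands.
Eif4e (chr3:138527018-138527267, plus strand): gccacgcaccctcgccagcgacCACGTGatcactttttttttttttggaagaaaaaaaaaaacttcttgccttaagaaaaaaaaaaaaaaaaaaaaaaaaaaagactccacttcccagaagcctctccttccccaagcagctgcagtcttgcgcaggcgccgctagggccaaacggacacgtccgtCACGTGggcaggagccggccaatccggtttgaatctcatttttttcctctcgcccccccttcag
Eif4g1 (chr16:20672477-20672726, plus strand): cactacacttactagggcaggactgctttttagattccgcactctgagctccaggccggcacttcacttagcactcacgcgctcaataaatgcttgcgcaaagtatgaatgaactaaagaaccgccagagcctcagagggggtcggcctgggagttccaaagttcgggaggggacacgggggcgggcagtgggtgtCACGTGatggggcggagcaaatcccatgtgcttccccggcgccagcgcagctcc
Eif4a1 (chr11:69672424-69672673, minus strand): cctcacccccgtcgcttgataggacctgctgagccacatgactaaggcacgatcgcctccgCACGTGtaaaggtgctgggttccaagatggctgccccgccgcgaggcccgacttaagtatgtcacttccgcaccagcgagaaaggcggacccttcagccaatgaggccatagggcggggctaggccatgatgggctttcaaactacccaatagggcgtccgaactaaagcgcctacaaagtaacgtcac
Eif4a2 (chr16:23107218-23107467, plus strand): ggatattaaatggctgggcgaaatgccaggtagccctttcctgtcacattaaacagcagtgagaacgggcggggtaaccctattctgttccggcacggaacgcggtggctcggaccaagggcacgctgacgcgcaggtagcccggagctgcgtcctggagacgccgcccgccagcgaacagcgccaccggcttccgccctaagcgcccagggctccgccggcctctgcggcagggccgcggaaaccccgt
These windows hold the motif 228 and 64 bases before the start in Eif4e, 54 bases before it in Eif4g1 and 189 bases before it in Eif4a1, and not in Eif4a2. Of the 61 members, 47 had a RefSeq promoter of 250 bases before and 50 after the start, and 13 of these (27.7%) held CACGTG at 1 or more listed starts. The share was 11% over the 11675 protein-coding genes tested that had such a promoter. Among members it was 7 of 24 for those called higher, 1 of 3 for those called lower and 5 of 20 for those not called. These counts describe letters in a window and not binding.

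At day 2 more of these genes were higher than lower in DPCP skin. Of the 61 members, 31 rose, 3 fell and 27 were not called, against a background of 46.1% of genes called in either direction, in edgeR's quasi-likelihood test over all 18259 genes tested, at a Benjamini-Hochberg adjusted p under 0.05. Over all genes tested 22.8% were called higher and 23.3% lower, against 50.8% and 4.92% of the members. The median log2 fold change was 0.27 over the members and −0.01 over all genes tested. All 61 members passed the filter on low counts. The rises were small, from 0.27 to 1.09 on the log2 scale, with a median of 0.49 against 0.73 over all genes called higher. In TMM-scaled CPM (counts scaled to a common library total), 37 members had every DPCP library above every control library and 4 had every one below, while 58.1% of all genes tested did one or the other (28.6% above and 29.4% below). Counts from whole skin cannot tell more cells of a type from more RNA per cell.

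**Figure D1:**
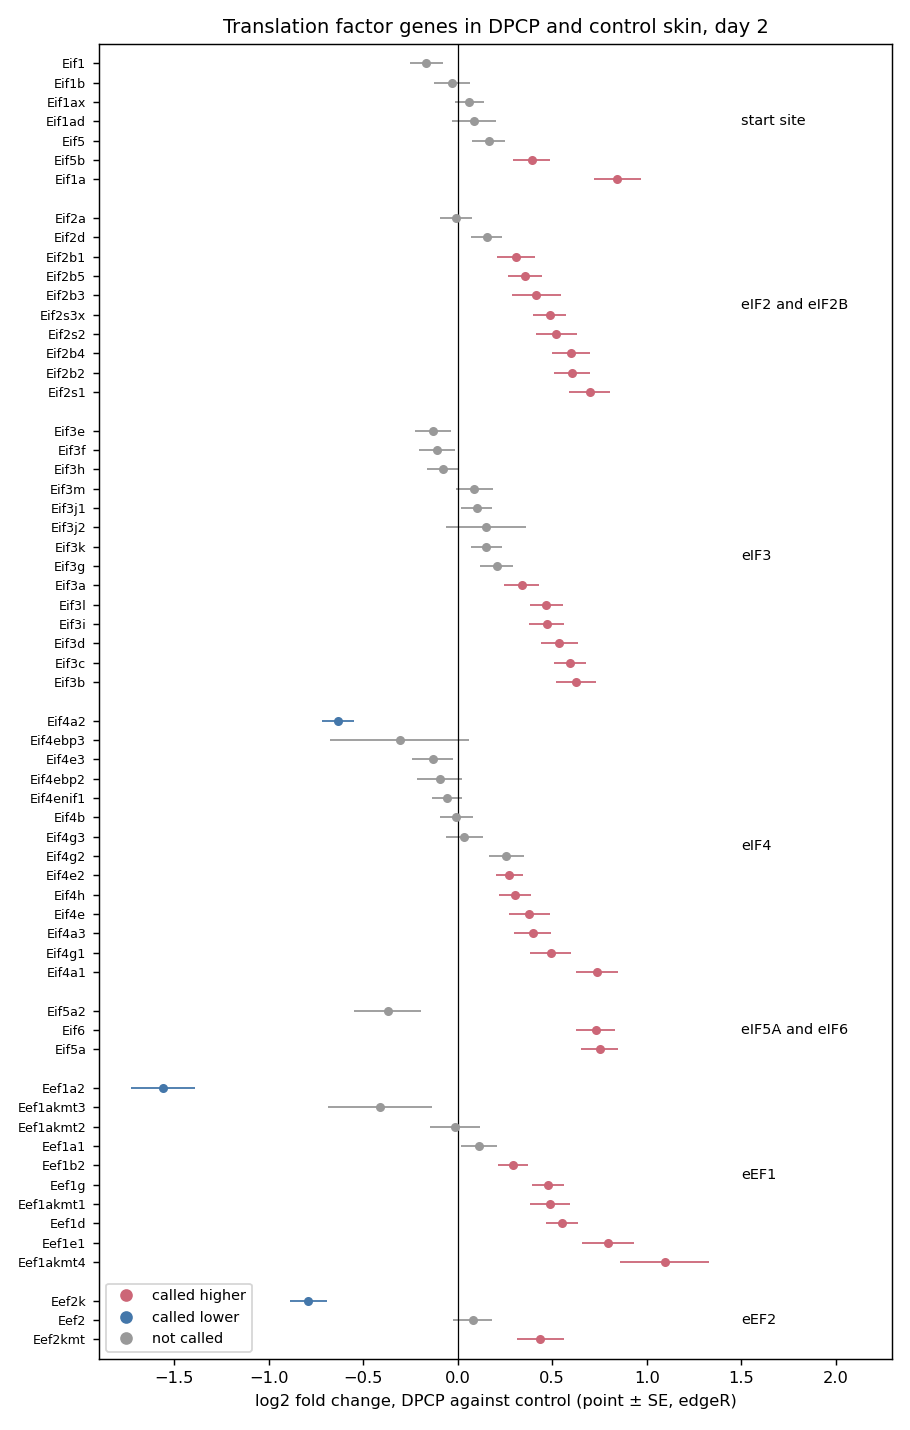
Log2 fold change (point) and standard error (bar) of each of the 61 genes, DPCP against control, grouped by role and ordered by fold change, from edgeR on 3 libraries per group. The 31 genes called higher lie between 0.27 and 1.09, and the 3 called lower are Eef1a2, Eef2k and Eif4a2.

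Markers of the labelled tissue were present in every library, and the marker lists moved with the groups. The 8 keratinocyte markers summed to 21422 to 26868 CPM in control and 27522 to 31336 CPM in DPCP libraries. Of these, 2 were higher (Krt14 and Itga6) and 4 lower (Krt15, Krt10, Col17a1 and Krt1). Krt14 averaged 4772 CPM in control and 17412 CPM in DPCP skin, while Krt10 averaged 5914 and 1019 CPM. The sum thus does not stand for the list as a whole. All 8 markers of cycling cells rose, and their summed level was 414 to 452 CPM in control and 1008 to 1096 CPM in DPCP libraries. All 8 neutrophil markers rose, from summed levels of 41.7 to 49.8 CPM to 504 to 1352 CPM, and 4 of 7 macrophage markers rose (1376 to 2297 and 2278 to 3959 CPM). Of the other lists, fibroblast genes gave 2 rises and no fall among 6 (4743 to 6729 and 6309.6 to 7676 CPM), adipocyte genes 1 rise and 2 falls among 6 (803 to 1048 and 906 to 1082 CPM), and T cell genes 5 falls among 6 (48.5 to 68.2 and 15.5 to 20.97 CPM). No gene of these lists was at 0 in every library. Over all genes tested 22.8% were called higher and 23.3% lower. The part of these cell types in the rise of the translation factors was not tested.

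Levels of different genes were set side by side only as TPM, which divides counts by gene length and scales each library to one sum. In mean TPM over the 6 libraries the order was led by Eef1a1 (6614 TPM), Eef2 (2171 TPM) and Eif5a (916 TPM), and these 3 also led when the longest protein-coding transcript gave the length. The lowest was Eif4ebp3, an eIF4E-binding protein gene, at 1.54 TPM. Reads that align to several places are lost, which can lower the TPM of members with processed pseudogenes, such as Eif4a-ps4 or Eif1-ps1. The paralog ratios below share this limit. Eef1a1, Eef2 and Eif5a were further apart than the spread within groups, since their control levels were 6839 ± 106, 2264 ± 127 and 745 ± 26.9 TPM (SD, n = 3). TPM is not scaled by TMM, and the median log2 ratio of DPCP to control TPM over all genes tested was −0.22. Even so, all 31 members called higher had a higher mean TPM in DPCP skin and the 3 called lower had a lower one.

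Among the 7 start-site factor genes, Eif1a and Eif5b rose and 5 were not called. The share called higher was 28.6%, near the 22.8% of all genes tested. Eif1a, which encodes an eIF1A protein, stood at 81.7, 61.7 and 77.6 CPM in the control libraries and at 122, 148 and 126 CPM in the DPCP libraries. Every DPCP library was above every control library, and the log2 fold change was 0.84 ± 0.13 (SE; edgeR adjusted p = 0.000946). Its X-linked paralog Eif1ax was at 125, 118 and 129.9 CPM in control and 131, 133 and 126 CPM in DPCP skin, and the groups overlapped (adjusted p = 0.547). Eif5b, the GTPase that joins the ribosomal subunits, averaged 127 ± 9.95 CPM in control and 167 ± 14.9 CPM in DPCP skin (SD, n = 3), a rise of 0.39 ± 0.10 on the log2 scale. Its last exons share bases with Rev1, so reads there were dropped.

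Eif1, which guards start codon choice and had the highest TPM of the start-site group, was at 255, 239.6 and 272 CPM in control and 235, 230.4 and 218 CPM in DPCP libraries. The DPCP values all lay lower, yet the gene was not called (log2 fold change −0.17 ± 0.09, edgeR adjusted p = 0.146). With library totals alone as the scale it was called lower (adjusted p = 0.0447). Eif5, Eif1ad and Eif1b had log2 fold changes of 0.16 ± 0.09, 0.09 ± 0.12 and −0.03 ± 0.10 (SE), none called.

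All 3 subunit genes of eIF2 rose, and so did all 5 genes of eIF2B, the factor that reloads eIF2 with GTP. In this role of 10 genes, 8 (80%) were called higher and 0 lower, beside 22.8% and 23.3% of all genes tested. Eif2s1, the alpha subunit that stress kinases phosphorylate, was at 83.4, 72.4 and 88.3 CPM in control and 122, 147 and 127 CPM in DPCP libraries. The groups did not overlap, and the change was 0.70 ± 0.11 on the log2 scale (SE; edgeR adjusted p = 0.0011). The beta subunit gene Eif2s2 and the X-linked gamma subunit gene Eif2s3x rose by 0.52 ± 0.11 and 0.49 ± 0.09 on the log2 scale. Eif2s3x had the highest TPM in this role with the table's gene lengths, but Eif2s2 did with the longest coding transcript as length (168.5 against 106 TPM). Eif2s3x was at 122, 117 and 124 CPM in control and 156, 182 and 171 CPM in DPCP libraries. The Y-linked copy Eif2s3y had 0 counts in every library.

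Of the eIF2B genes, Eif2b2 rose from 30.9 ± 2.06 to 47.1 ± 3.67 CPM (SD, n = 3) and Eif2b4 from 40.0 ± 3.40 to 60.6 ± 5.86 CPM. Their log2 fold changes were 0.61 ± 0.09 and 0.60 ± 0.10 (SE), and exons of Eif2b4 overlap those of Snx17. Eif2b1, Eif2b3 and Eif2b5 rose by 0.31 ± 0.10, 0.42 ± 0.13 and 0.35 ± 0.09. Eif2b1 was not called without control replicate 1 (adjusted p = 0.0753), control replicate 2 (0.0911), DPCP replicate 2 (0.0864) or DPCP replicate 3 (0.0833). Eif2b3 was not called without control replicate 2 (0.0762), control replicate 3 (0.0799), DPCP replicate 2 (0.105) or DPCP replicate 3 (0.0736). Eif2a and Eif2d, which can bring initiator tRNA to the ribosome without eIF2, were at 88.1 ± 6.33 and 47.5 ± 2.91 CPM in control and at 87.6 ± 4.01 and 52.8 ± 1.49 CPM in DPCP skin, neither called (edgeR adjusted p = 0.946 and 0.16).

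The 14 genes of eIF3, the largest initiation factor, gave 6 rises and 8 that were not called. That is 42.9% higher, beside 22.8% of all genes tested. Those called were Eif3a, Eif3b, Eif3c, Eif3d, Eif3i and Eif3l. Eif3b, a scaffold subunit of the core, was at 180.0, 192 and 206 CPM in control and 269, 287 and 336 CPM in DPCP libraries, without overlap (log2 fold change 0.62 ± 0.11, SE, edgeR adjusted p = 0.00192). Eif3c and Eif3d, a subunit known to bind the cap of some mRNAs, rose by 0.59 ± 0.09 and 0.54 ± 0.10 on the log2 scale. Eif3a, the largest subunit, was at 381, 349 and 372 CPM in control and 432, 467 and 493 CPM in DPCP libraries, a rise of 0.34 ± 0.09. Eif3i and Eif3l rose by 0.47 ± 0.09 and 0.47 ± 0.09, so that the called subunits lay between 0.34 and 0.62.

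Eif3e, Eif3f and Eif3h had estimates below 0 and were not called. Eif3e was at 239, 219 and 223 CPM in control and 214, 222 and 186 CPM in DPCP libraries, and Eif3h, the eIF3 gene of highest TPM with the table's gene lengths, at 245, 230.0 and 235 and 239, 217 and 217 CPM. Both groups of values overlapped. The log2 fold changes of Eif3e, Eif3f and Eif3h were −0.13 ± 0.09, −0.11 ± 0.10 and −0.08 ± 0.08 (SE; edgeR adjusted p = 0.288, 0.378 and 0.477). With the longest coding transcript as length, Eif3k had 497 TPM and Eif3h 483 TPM, so that order turned. Eif3e, Eif3f and Eif3h were singled out after their values were seen, and the difference between them and the subunits that rose was not tested. Eif3g, Eif3k, Eif3m, Eif3j1 and Eif3j2 lay between 0.09 and 0.21.

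**Figure D2:**
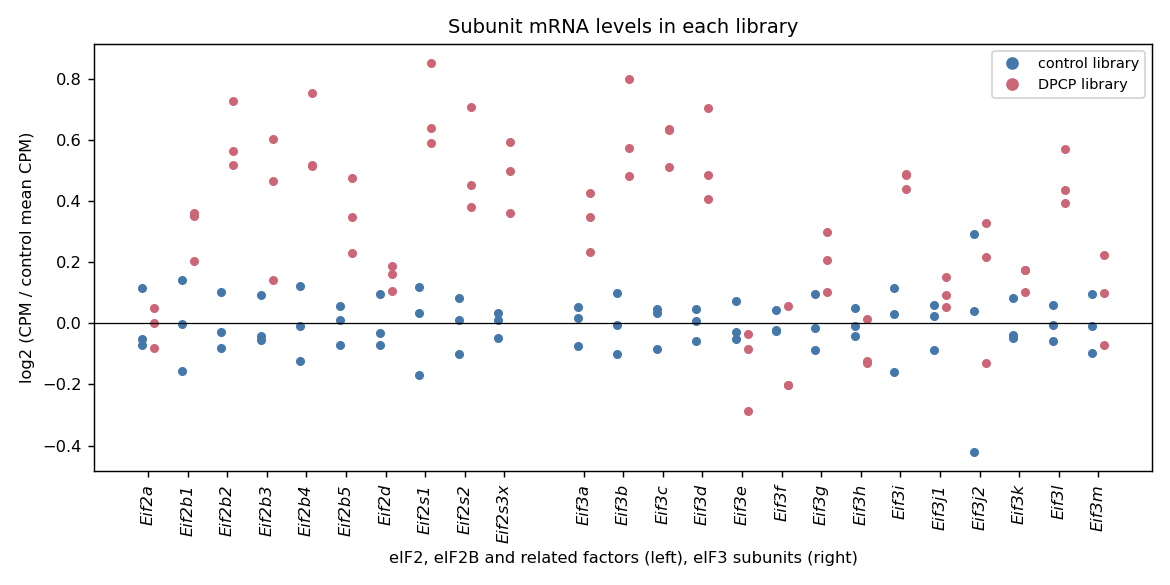
Level of each eIF2, eIF2B and eIF3 gene in each library, as log2 of CPM over the gene's control mean; blue points are the 3 control and red points the 3 DPCP libraries. DPCP points lie above all control points for the eIF2 and eIF2B subunit genes, while for Eif3e, Eif3f and Eif3h they overlap the control points.

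In the cap-binding group of 14 genes, 6 rose, 1 fell and 7 were not called. That is 42.9% higher and 7.14% lower, beside 22.8% and 23.3% of all genes tested. The helicase gene Eif4a1 (ENSMUSG00000059796, chromosome 11, 69666936 to 69672423 on GRCm38) was at 569, 462 and 554 CPM in control and 822, 923 and 896 CPM in DPCP libraries. All DPCP values lay above all control values, and the change was 0.74 ± 0.11 on the log2 scale (SE; edgeR adjusted p = 0.000939). Its paralog Eif4a2 (ENSMUSG00000022884, chromosome 16, 23107444 to 23114136 on GRCm38) moved the other way, from 304, 291 and 274 to 195, 188 and 177 CPM. Its log2 fold change was −0.63 ± 0.09 (SE; edgeR adjusted p = 0.000596). Exons of Eif4a2 overlap those of Rfc4 and of small nucleolar RNA genes, so reads there were dropped. Eif4a3, a related helicase of the exon junction complex, rose by 0.40 ± 0.10.

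The cap-binding protein gene Eif4e was at 108, 88.7 and 106 CPM in control and 125, 146 and 122 CPM in DPCP libraries. The change was 0.38 ± 0.11 on the log2 scale (SE; edgeR adjusted p = 0.0212), a call lost without control replicate 2 (adjusted p = 0.0579) or DPCP replicate 2 (0.0707). Eif4g1, the scaffold of the complex, averaged 461 ± 42.6 CPM in control and 649 ± 59.2 CPM in DPCP skin (SD, n = 3), a rise of 0.49 ± 0.11 on the log2 scale. The 3 windows with CACGTG printed above belong to genes that rose, but they were picked with these results known, and 5 of the 20 members not called also hold the motif. Eif4e2, a cap-binding paralog known to repress translation, and Eif4h, a helper of the helicase, rose by 0.27 ± 0.07 and 0.30 ± 0.09. Eif4e2 was not called without control replicate 3 (adjusted p = 0.0502), nor Eif4h without control replicate 2 (0.0534).

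The other cap-binding genes were not called. Eif4g2, which encodes a scaffold lacking the eIF4E site, was at 954, 902 and 1017 CPM in control and 1107, 1135 and 1191 CPM in DPCP libraries, without overlap, and had an edgeR adjusted p of 0.0502 (log2 fold change 0.26 ± 0.09, SE). It passed with RLE factors, DESeq2, the filter of 1 CPM and the replicate block (adjusted p = 0.0448, 0.0204, 0.0415 and 0.0445). Eif4g3 and Eif4e3, paralogs of the scaffold and the cap-binding protein, had log2 fold changes of 0.03 ± 0.10 and −0.13 ± 0.11. Eif4b was at 449.7 ± 8.95 and 447 ± 24.0 CPM, and the inhibitor gene Eif4ebp2 at 198 ± 20.6 and 185 ± 23.5 CPM (edgeR adjusted p = 0.95 and 0.544). Eif4ebp3 and Eif4enif1, which binds eIF4E and carries it into the nucleus, had log2 fold changes of −0.31 ± 0.37 and −0.06 ± 0.08.

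The 3 genes of eIF5A and eIF6 gave 2 rises and 0 falls (66.7% and 0%), beside 22.8% and 23.3% of all genes tested. Eif5a (ENSMUSG00000078812, chromosome 11, 69916714 to 69921958 on GRCm38) encodes the hypusine-bearing factor that helps ribosomes through difficult peptide bonds. It was at 590.5, 606 and 635 CPM in control and 956, 1004 and 1121 CPM in DPCP libraries, which did not overlap (log2 difference 0.75 ± 0.10, SE, edgeR adjusted p = 0.000476). Its lowly expressed paralog Eif5a2 was at 12.7, 11.49 and 9.24 and 8.34, 10.2 and 7.21 CPM, with overlapping groups (log2 fold change −0.37 ± 0.18, adjusted p = 0.117). Dhps and Dohh, the enzymes that make hypusine, were not called (adjusted p = 0.123 and 0.13). Eif6, which keeps the large ribosomal subunit from joining too early and serves in its making, went from 147, 131 and 153 to 226, 224 and 265 CPM. No DPCP library reached down to the control range, and the log2 fold change was 0.73 ± 0.10 (SE; edgeR adjusted p = 0.000736). An antisense gene, Gm16098, shares exon bases with Eif6.

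**Figure D3:**
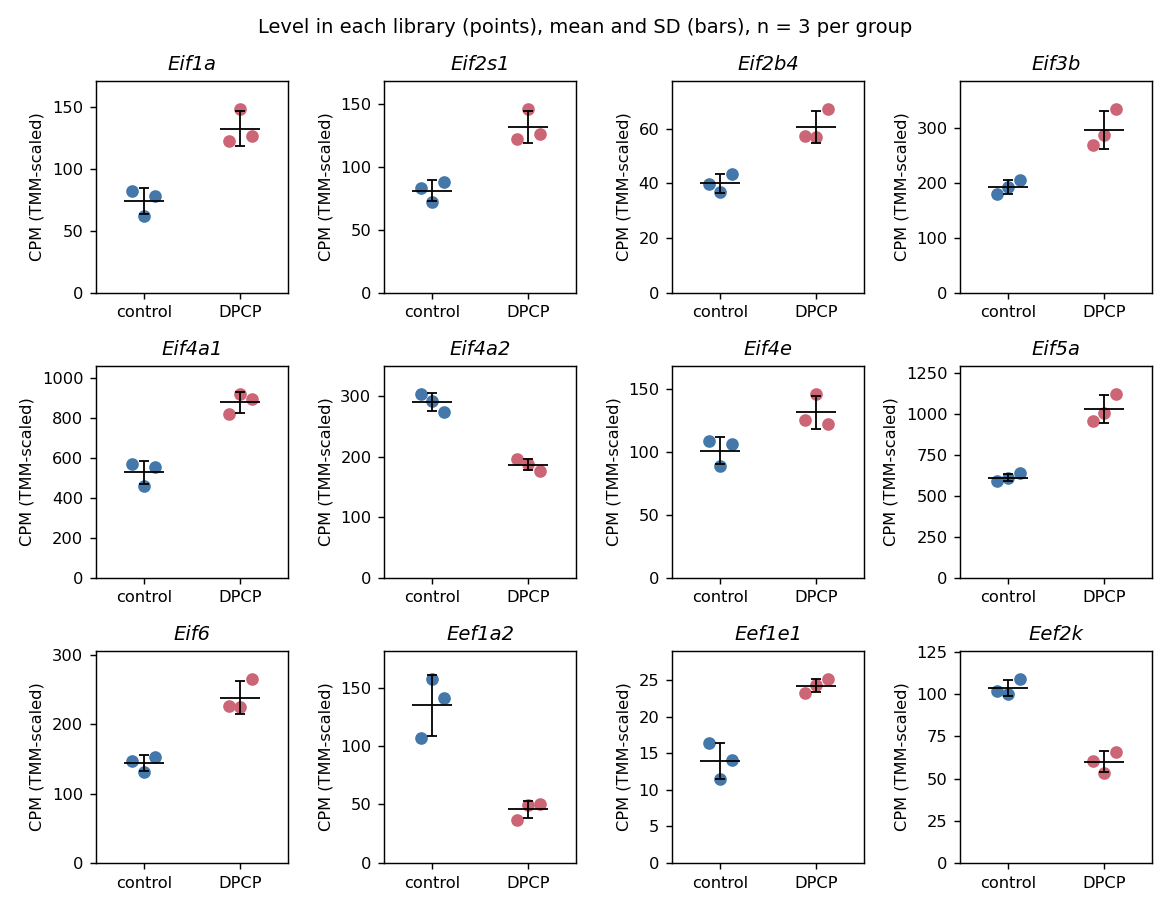
TMM-scaled CPM of 12 genes in each library (points) with the group mean and SD (bars), n = 3 per group and axes from 0. In each of the 12 panels the control and DPCP points do not overlap, with Eif4a2, Eef1a2 and Eef2k lower in DPCP skin. All 12 are called members, so they do not stand for the 61, of which 20 had overlapping groups. Among all genes tested, 58.1% had groups that did not overlap.

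Of the 10 genes of the eEF1 group, 6 rose, 1 fell and 3 were not called. That is 60% higher and 10% lower, beside 22.8% and 23.3% of all genes tested. The fall was that of Eef1a2 (ENSMUSG00000016349, chromosome 2, 181147653 to 181157014 on GRCm38), the eEF1A form known from skeletal muscle, heart and neurons. It was at 106, 157 and 141 CPM in control and 37.1, 49.9 and 50.3 CPM in DPCP libraries, the largest change of any member in size, at −1.56 ± 0.17 on the log2 scale (SE; edgeR adjusted p = 0.000193). Skeletal muscle markers moved with it. All 12 markers of that list fell, none was at 0, and their summed level was 14398 to 18119 CPM in control and 3743 to 7294 CPM in DPCP libraries. Rpl3l, a ribosomal protein gene of muscle, fell by 1.57 on the log2 scale. Of the neuron markers Tubb3, Nefl and Prph, Tubb3 rose from 1.11 ± 0.259 to 58.6 ± 17.6 CPM (SD, n = 3), Nefl had 0 counts in every library, and Prph averaged 0.107 CPM in control and 0.0599 CPM in DPCP skin. The part of muscle or neuron content in the Eef1a2 result was not tested.

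Eef1a1, the general form of eEF1A, was at 5923, 5782 and 5919 CPM in control and 6420.4, 6302 and 6310.0 CPM in DPCP libraries. The values did not overlap, but the difference was small and not called (log2 fold change 0.11 ± 0.09, SE, edgeR adjusted p = 0.367). The exchange factor subunit genes Eef1b2, Eef1d and Eef1g rose by 0.29 ± 0.08, 0.55 ± 0.09 and 0.48 ± 0.08. Eef1b2 was not called without control replicate 3 (adjusted p = 0.0521) or DPCP replicate 2 (0.0512). Eef1e1, a scaffold of the multi-synthetase complex, was at 16.4, 11.52 and 14.0 and 23.3, 24.3 and 25.2 CPM (log2 fold change 0.79 ± 0.14, SE, adjusted p = 0.00186).

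Among the methyltransferase genes of eEF1A, Eef1akmt4 had the largest rise of all members, from 1.53, 0.966 and 1.22 to 2.51, 2.71 and 2.74 CPM (log2 fold change 1.09 ± 0.23, SE, edgeR adjusted p = 0.00534). It rested on raw counts of 45, 29 and 41 in the control libraries, and its exons overlap those of Alg3, so its level is uncertain. Eef1akmt1 rose by 0.49 ± 0.11, while Eef1akmt2 and Eef1akmt3 had log2 fold changes of −0.01 ± 0.13 and −0.41 ± 0.27 and were not called.

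The eEF2 group of 3 genes gave 1 rise and 1 fall (33.3% each), beside 22.8% higher and 23.3% lower of all genes tested. Eef2 itself was at 2478, 2659.8 and 2639 CPM in control and 2705, 2532 and 2977 CPM in DPCP libraries, with overlapping groups (log2 fold change 0.08 ± 0.10, SE, edgeR adjusted p = 0.559). Eef2k, the kinase that phosphorylates eEF2 and thereby slows elongation, was lower in DPCP skin. It was at 102.1, 100.4 and 109 CPM in control and 60.6, 53.6 and 65.9 CPM in DPCP libraries, without overlap (log2 fold change −0.79 ± 0.10, SE, adjusted p = 0.00035). Eef2kmt, a methyltransferase of eEF2, rose by 0.44 ± 0.12, but the call was lost without control replicate 1 (adjusted p = 0.0632), control replicate 2 (0.0512) or DPCP replicate 2 (0.0637).

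Several members exist as paralogs that can be weighed against each other within a library, which removes any scaling between libraries. In TPM, Eif4a1 exceeded Eif4a2 by ratios of 2.31, 1.95 and 2.49 in control and 5.18, 6.04 and 6.23 in DPCP libraries. The mean log2 ratio was 1.37 higher in DPCP skin. Eef1a1 over Eef1a2 went from 46.5, 30.7 and 35.2 to 145, 106 and 105, a log2 difference of 1.66. For Eif1a over Eif1ax the ratios were 0.824, 0.660 and 0.755 in control and 1.18, 1.41 and 1.27 in DPCP libraries. Which of these 2 genes stands higher depends on the length used. Their mean over the 6 libraries was 65.1 TPM each with the table's gene lengths. With the longest coding transcript as length it was 94.8 TPM for Eif1a and 66.3 TPM for Eif1ax. The log2 differences of Eif5a over Eif5a2, Eif4e over Eif4e3 and Eif4g1 over Eif4g3 were 1.12, 0.52 and 0.45.

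In these 6 pairs every DPCP ratio lay above every control ratio, and in Eif1 over Eif1b the groups overlapped (log2 difference −0.14, exact permutation p = 0.2). The 6 pairs each had an exact 2-sided permutation p of 0.1, the smallest that 3 against 3 libraries allow, and 0.117 when adjusted over the 7 pairs. Eif2s3x over Eif2s3y gave no ratio, as Eif2s3y had 0 counts.

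**Figure D4:**
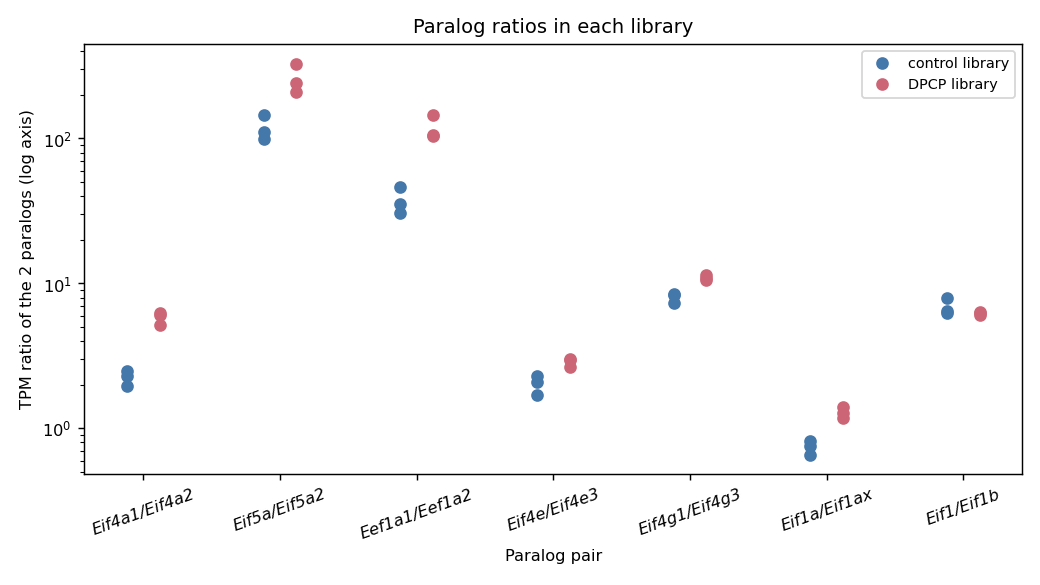
TPM ratio of 2 paralogs in each library on a log axis, with 3 control (blue) and 3 DPCP (red) libraries per pair. The Eif4a1/Eif4a2 ratio was 1.95 to 2.49 in control and 5.18 to 6.23 in DPCP libraries, and Eif1/Eif1b is the pair in which the groups overlap.

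The rest of the translation machinery was read from 6 lists in the same fit. Of 22 genes for cytosolic aminoacyl-tRNA synthetases and their scaffolds, which charge tRNAs with amino acids, 20 rose and none fell, with a median log2 fold change of 0.50. That is 90.9% higher and 0% lower, beside 22.8% and 23.3% of all genes tested. Vars, Nars and Aars rose by 0.83 ± 0.09, 0.70 ± 0.09 and 0.80 ± 0.11 (SE), and Qars and Dars were not called (edgeR adjusted p = 0.0644 and 0.115). Of 84 cytosolic ribosomal protein genes tested, 30 rose and 1 fell (35.7% and 1.19%), with a median of 0.21. The fall was that of Rpl3l, and Rpl13a, Rpl41 and Rpl22l1 had the smallest p among those that rose (1.12 ± 0.10, 0.90 ± 0.11 and 0.65 ± 0.10). Rpl13a averaged only 14.0 CPM in control and 30.3 CPM in DPCP skin, and Rpl22l1 27.4 and 43.1 CPM, against 739 and 1377 CPM for Rpl41. Reads of ribosomal protein genes with processed pseudogenes are lost where they align to several places. Whether such loss lowers the level of Rpl13a was not tested. The number that rose was 16 with library totals alone, 19 without control replicate 2, 16 without control replicate 3 and 18 without DPCP replicate 1 or DPCP replicate 2.

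Poly(A)-binding and helper genes gave 4 rises and 3 falls among 14 tested (28.6% and 21.4%), near the 22.8% and 23.3% of all genes tested. Pabpc1, the main poly(A)-binding protein, rose by 0.68 ± 0.09, Abce1, which recycles ribosomes, by 0.65 ± 0.10, and Abcf1 by 0.42 ± 0.09. Paip2 and Paip2b, inhibitors of the poly(A)-binding protein, had log2 fold changes of −0.55 ± 0.10 and −0.79 ± 0.07, and Tpt1 −0.36 ± 0.12 (edgeR adjusted p = 0.00218, 8.76e-05 and 0.0404). Tpt1 was not called without control replicate 1, 2 or 3, or without DPCP replicate 2 or 3 (adjusted p = 0.149, 0.0707, 0.067, 0.0682 and 0.114). Of 10 release, rescue and recycling genes 3 rose and 1 fell (30% and 10%), with the release factor genes Gspt1 and Etf1 at 0.54 ± 0.10 and 0.42 ± 0.09, Hbs1l at 0.47 ± 0.10 and Gtpbp2 at −0.32 ± 0.10. The fall was lost without control replicate 2, control replicate 3, DPCP replicate 1 or DPCP replicate 2, where 0 of the list were called lower. Of 10 mitochondrial translation factor genes 4 rose and 1 fell (40% and 10%), led by the elongation factor genes Tufm (0.57 ± 0.11) and Gfm1 (0.43 ± 0.08), with Mrrf at 0.28 ± 0.09 and Guf1 at −0.39 ± 0.10. Without control replicate 1, control replicate 2, control replicate 3 or DPCP replicate 3, 2 of that list rose, and Guf1 was not called without control replicate 1. Mrrf kept its call only without DPCP replicate 1 among the 6 fits that left out a library.

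Regulators gave 7 rises and 3 falls among 27 genes, which is 25.9% higher and 11.1% lower, beside 22.8% and 23.3% of all genes tested. The share that rose was near the background. Eif4ebp1, which sequesters eIF4E, was at 46.2, 43.6 and 48.3 CPM in control and 83.2, 99.2 and 90.3 CPM in DPCP libraries (log2 fold change 0.98 ± 0.09, SE, edgeR adjusted p = 0.0001). Pdcd4, an inhibitor of the eIF4A helicase, was lower, at 69.7, 75.2 and 78.0 and 49.7, 40.0 and 40.6 CPM (log2 fold change −0.77 ± 0.11, adjusted p = 0.000601). The mTOR pathway inhibitor genes Tsc1 and Ddit4 had log2 fold changes of −0.47 ± 0.09 and −0.43 ± 0.10, both called. Akt1 rose by 0.62 ± 0.08. Ppp1r15b, a subunit of the phosphatase that acts on eIF2, rose by 0.53 ± 0.09. Ppp1r15a, which encodes another such subunit, rose by 0.67 ± 0.17 (edgeR adjusted p = 0.0124). Larp1 rose by 0.31 ± 0.10. Its call was lost without control replicate 1, control replicate 2 or DPCP replicate 3 (adjusted p = 0.0967, 0.0912 and 0.0956).

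Of the eIF2 kinase genes, Eif2ak1 and Eif2ak3 had log2 fold changes of 0.23 ± 0.07 and 0.24 ± 0.08 (adjusted p = 0.0334 and 0.0371), and Eif2ak2 and Eif2ak4 were not called (edgeR adjusted p = 0.995 and 0.279). Eif2ak1 kept its call only without DPCP replicate 1 among the 6 fits that left out a library, and Eif2ak3 in none of them (adjusted p = 0.0605 to 0.106). Without control replicate 1, control replicate 2 or DPCP replicate 3, 4 regulators were called higher. Myc was at 39.6, 40.5 and 49.97 CPM in control and 49.1, 50.2 and 60.1 CPM in DPCP libraries, with overlapping groups (log2 fold change 0.29 ± 0.12, SE, adjusted p = 0.0796). Mtor was at 67.1 ± 6.70 and 67.3 ± 7.77 CPM (SD, n = 3).

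**Figure D5:**
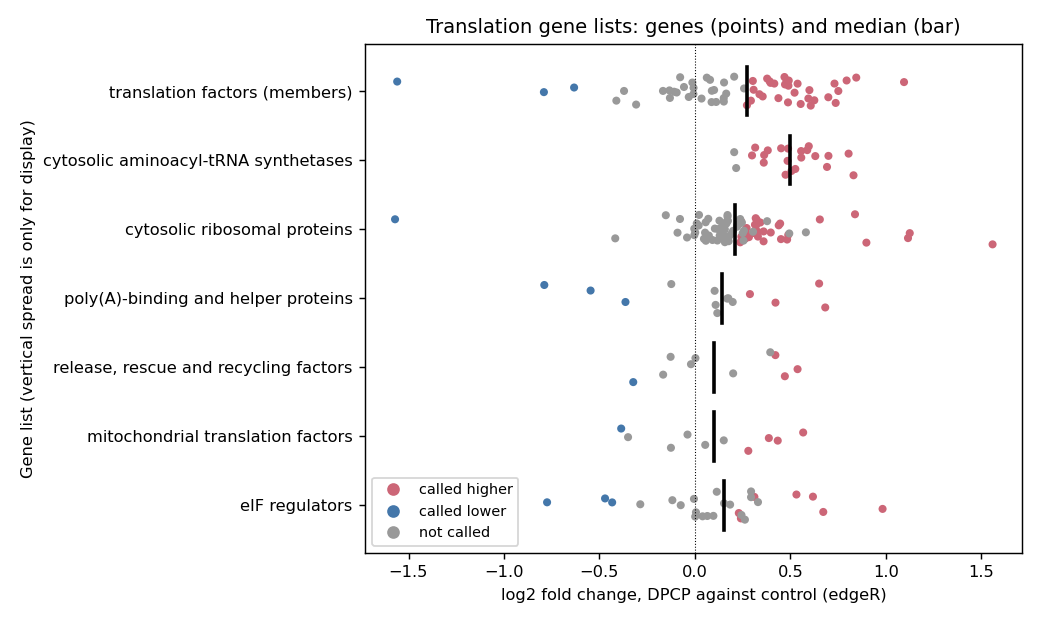
Log2 fold change of each tested gene (points, coloured by call) and the median (black bar) for the 61 translation factors and 6 other lists; the vertical spread within a list is only for display. The medians run from 0.10 for the release and the mitochondrial factors to 0.50 for the aminoacyl-tRNA synthetases.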

How the data were processed

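RNA of dorsal mouse skin was read by paired-end, strand-preserving poly(A) sequencing, per the labels' protocols. The authors deposited a table of raw gene counts, for which featureCounts 1.6.2 used Ensembl GRCm38 gene models (release 102), as the file headers record. The command line set no option for strand, read pairs, several alignments or several genes, so mates were counted singly on either strand and ambiguous reads were dropped. The submitters' processing notes also name the build mm10, the trimmer Trimmomatic 0.36, the aligner HISAT2 2.2.1, and the programs StringTie 2.2.1 and DESeq2 1.34.0. The deposited table also gives gene length in bases, which is another value used here for TPM.

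Symbols and biotypes came from GENCODE M21, which matched 55227 of 55487 identifiers. Of the 61 members, 26 share an exon base with another gene. A count of 0 allowed up to 0.0772 to 0.106 CPM on unscaled library totals (3 counts, counting error only). This takes each count as independent, though mates were counted singly.

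Counts were tested with edgeR 4.0.16 in R 4.3.3 (quasi-likelihood F-test, TMM, filterByExpr), with Benjamini-Hochberg adjustment over all 18259 genes. SE is the log2 fold change with no prior count over the square root of F. CPM otherwise uses TMM-scaled totals. Paralog ratios were tested by exact permutation (scipy 1.17.1). Named genes were, in each role, up to 3 called members with the largest rise, up to 3 with the largest fall and the member of highest TPM, plus fixed members, and from each list up to 3 called genes per direction by p. Other genes named are there to complete a complex or account for a call, and were added after values were seen. Members and lists were chosen with earlier results of these data known. The marker list that holds the neuron genes is reported here in part. The fit was also run on simulated counts with 1 fixed dispersion. There far fewer genes changed than were called here, equally many up and down, so that run cannot vouch for the present calls. Alternatives were RLE, upper-quartile and no factors, DESeq2 1.42.0, other count filters, a replicate block and each library left out, and, chosen after seeing the data, totals without the top 100 genes and members sharing no exon.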

Additional observations from a re-analysis of the deposited data

How the results depend on the processing

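No called member and no paralog difference changed sign under the alternatives run, while 9 members that were not called did so, none with a call. Of the 34 called members, 27 (24 higher and the 3 lower) were called under each of the 14 other fits over all genes; Eif2b1, Eif2b3, Eif4e, Eif4e2, Eif4h, Eef1b2 and Eef2kmt were not. Eif1 and Eif4g2 were each called under at least 1. The number of members called higher was 26 with library totals alone, 32 with DESeq2 and 26 to 31 with 1 library left out, and 3 were lower each time a library was left out. Members sharing no exon base with another gene, a set chosen after seeing the data, gave 20 higher and 1 lower of 35. Over all genes, 3492 to 4035 were higher and 3430 to 4039 lower with 1 library left out. Library totals alone gave 3517 higher and 4858 lower, and totals without the top 100 genes 3676 and 4722. The members' median stayed 0.25 to 0.31 above that of all genes in each fit.

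Regulators called higher numbered 4 with library totals alone and with totals without the top 100 genes, and 4 to 7 with 1 library left out. Mitochondrial translation factors called higher numbered 2 with upper-quartile factors, library totals alone, no count filter, the replicate block or totals without the top 100 genes, and 2 to 3 with 1 library left out, where 0 to 1 were lower. Ribosomal protein genes called higher numbered 16 with library totals alone and 16 to 31 with 1 library left out. Release factors called lower numbered 0 to 1. The cause of these shifts was not tested.

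The replicate numbers showed no clear pairing of the libraries. Same-numbered deviations correlated at 0.042, 0.024 and 0.10, and differently numbered ones at −0.13 to 0.09. Not every library correlated best with its own number. Deviations from means of 3 libraries cannot exclude pairing. With the replicate block, 32 members were higher and 3 lower, and the log2 ratio of Eif4a1 to Eif4a2 differed by 1.37 (exact sign-flip p = 0.25, the smallest 3 pairs allow). With 1 library left out, that difference was 1.28 to 1.46, Eef1a1 to Eef1a2 1.51 to 1.83, Eif5a to Eif5a2 0.94 to 1.28 and Eif1 to Eif1b −0.20 to −0.03. Low counts go with the widest errors, with SE of 0.37 for Eif4ebp3, 0.27 for Eef1akmt3, 0.23 for Eef1akmt4 and 0.21 for Eif3j2.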

Other observations

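The processed pseudogene Eif4a-ps4 (chromosome 1), which is outside the member rule, was at 85.0, 69.0 and 89.1 CPM in control and 131, 157 and 136 CPM in DPCP libraries (log2 fold change 0.80 ± 0.12, SE, edgeR adjusted p = 0.000948). It rose as Eif4a1 did, and whether its reads are its own transcripts or strays from a parent gene was not tested. The pseudogene Eif3s6-ps2 was at 3.36 ± 0.245 and 3.40 ± 0.193 CPM (SD, n = 3; adjusted p = 0.945).

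The Y-linked genes Eif2s3y, Ddx3y, Kdm5d and Uty had 0 counts in all 6 libraries, which allows up to 0.0772 to 0.106 CPM per library on unscaled totals. Xist was present in every library, at 882 to 921 CPM in control and 467 to 558 CPM in DPCP skin (log2 fold change −0.82 ± 0.10, SE, edgeR adjusted p = 0.000315). The labels do not give the sex of the mice.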
